A study of Mus musculus with 40 samples.

Results

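The phagocyte NADPH oxidase genes Cyba, Cybb, Ncf1, Ncf4 and Rac2 are described here across the genotypes of a study of the histone acetyltransferases KAT6A and KAT6B. They are 5 of the 26411 genes counted in each library and were found by gene symbol. The set was selected on the counts of the E14.5 LSK libraries, with the LSK results already known, so differences between LSK genotypes are given for these 5 genes as a description, with no test. The 24 whole E9.5 embryos of the same study did not enter that choice, and the genes were tested there.

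LSK cells are lineage marker-negative, SCA-1+ and c-KIT+ cells, a gate that holds hematopoietic stem and progenitor cells, and were sorted by flow cytometry from fetal liver. The 16 LSK libraries came from 4 genotypes, with 4 libraries each. These were wild type (WT), Kat6a G656E/G656E (Kat6a E/E), Kat6b G577E/G577E (Kat6b E/E) and animals homozygous for both mutations (double E/E). Each mutation puts glutamic acid in place of a glycine of the acetyl-CoA binding site, and both are germline mutations made with Cas9 in C57BL/6J one-cell embryos, so every cell of the animal carried them. The E9.5 embryos had the same 4 genotypes and 2 more, Kat6a cfd/cfd (Kat6a -/-), which lacks exons 3 to 7 of Kat6a, and Kat6b dec/dec (Kat6b -/-), which lacks exons 2 to 12 of Kat6b, again with 4 embryos each. The question of the study was which effects of losing either protein are due to loss of its acetylation activity.

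The oxidase of neutrophils and macrophages passes electrons from NADPH across a membrane to oxygen, and the superoxide that results is used to kill microbes. CYBB holds the electron path and sits in the membrane with CYBA, which stabilizes it. NCF1 and NCF4 wait in the cytosol and join the membrane pair when the cell is activated, together with RAC2, the RAC GTPase of blood cells. Inherited loss of the CYBB, CYBA, NCF1 or NCF4 subunit causes chronic granulomatous disease. In hematopoiesis, transcripts of these genes are best known from the granulocyte and monocyte lineages.

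The genes lie on 4 chromosomes of the mouse genome (GRCm39, GENCODE annotation). Cybb is on chromosome X (9301491 to 9354010, minus strand), Cyba on chromosome 8 (123150422 to 123159706, minus strand) and Ncf1 on chromosome 5 (134248907 to 134258479, minus strand). Ncf4 (78128982 to 78146784, plus strand) and Rac2 (78443367 to 78457429, minus strand) share chromosome 15 and are 297 kb apart. The libraries did not keep strand. In GENCODE, 18.4% of the exonic bases of Cyba overlap Il17c and 15.7% of those of Ncf1 overlap Gtf2ird2. The overlap is 5.2% for Cybb (with Xk) and 2.4% for Rac2, and Ncf4 has none. The counts used RefSeq gene models, on which these shares were not computed. Reads cannot be assigned to one gene where the counted models of a pair overlap.

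Promoters of 3 of the 5 genes, Cybb, Cyba and Ncf1, were matched in the RefSeq promoter table (GRCm39), and Ncf4 and Rac2 were not matched. They are shown because transcription factors of the myeloid lineage, PU.1 above all, are known to act at oxidase promoters and their genes are measured further on. Each sequence runs 5′ to 3′ on the strand of the gene, from 250 bases before the RefSeq start to 20 bases after it. Capitals mark the letters GAGGAA on either strand, here taken as the PU box. Sites of PU.1 that differ from these letters were not searched for and are not marked.
Cybb, chrX:9335544-9335813, minus strand: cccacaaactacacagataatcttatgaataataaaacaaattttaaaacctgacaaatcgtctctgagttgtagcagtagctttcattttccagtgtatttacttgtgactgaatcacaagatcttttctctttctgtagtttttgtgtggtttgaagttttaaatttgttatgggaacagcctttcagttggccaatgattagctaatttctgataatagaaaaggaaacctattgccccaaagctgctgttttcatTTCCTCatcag
Cyba, chr8:123159660-123159929, minus strand: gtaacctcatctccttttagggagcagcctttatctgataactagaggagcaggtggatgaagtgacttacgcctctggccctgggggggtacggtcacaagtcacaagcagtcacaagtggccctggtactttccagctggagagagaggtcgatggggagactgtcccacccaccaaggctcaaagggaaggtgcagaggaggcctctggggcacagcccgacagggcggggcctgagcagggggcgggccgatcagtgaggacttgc
Ncf1, chr5:134258460-134258729, minus strand: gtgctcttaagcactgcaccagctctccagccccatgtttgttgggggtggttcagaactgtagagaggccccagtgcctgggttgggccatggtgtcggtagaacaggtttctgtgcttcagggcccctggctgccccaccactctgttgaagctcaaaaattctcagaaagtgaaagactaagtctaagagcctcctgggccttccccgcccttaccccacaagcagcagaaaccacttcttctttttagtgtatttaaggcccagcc

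Cybb held the PU box letters once, on the opposite strand from base 10 after its RefSeq start, and Cyba and Ncf1 held none in the 300 bases of the table. Among all 32851 promoters of the table, 28.3% held these letters on either strand. The TATA box letters TATAAA were in none of the 3 windows and in 13.6% of all promoters. The GC content differed widely, with 35.3% in the Cybb window, 60.7% in the Cyba window and 54.0% in the Ncf1 window. The RefSeq start of Cybb lies 18447 bases from the outermost start in GENCODE, against 27 bases for Cyba and 0 for Ncf1, so other starts of Cybb are not shown here.

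LSK libraries held 12270376 to 59216547 gene counts (median 21709236) and E9.5 libraries 8401990 to 23339359 (median 15317052). Values are given as CPM, counts scaled to a common library total. Kit was at 351 to 552 CPM in the LSK libraries and Cd34 at 349 to 844 CPM, whereas Ly6a, which encodes SCA-1, was at 0.937 to 10.3 CPM. Of the 16 libraries, 4 stood apart. Kat6a E/E replicate 2 and double E/E replicates 2 to 4 had 12600 to 13683 genes with a count, and the other 12 LSK libraries had 16082 to 17647. The 3 double E/E libraries among them were 1 litter. Their summed CPM of 10 neutrophil markers was 1302 to 2146, against 200.4 to 647 in the other 13 libraries, although Ly6g was at 0 to 2.95 CPM in all 16. Kat6a and Kat6b transcript levels do not report a point mutation, and in LSK cells Kat6a was at 174 ± 8.35 CPM in WT and 180.3 ± 5.63 in Kat6a E/E (mean ± SD, n=4), and Kat6b at 35.6 ± 3.40 in WT and 31.05 ± 6.61 in Kat6b E/E.

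All 5 genes were transcribed in WT LSK cells, at levels that differed widely between them. On the scale of CPM per kb of transcript, which allows genes to be compared, Rac2 was highest at 165 ± 18.0 (mean ± SD, n=4), followed by Cyba at 123 ± 8.24, Ncf1 at 52.9 ± 3.72 and Ncf4 at 29.5 ± 2.27. Cybb was lowest at 5.39 ± 0.944. The WT libraries of neighbors in this order did not overlap. The steps were 1.34 times from Rac2 to Cyba, 2.33 from Cyba to Ncf1, 1.79 from Ncf1 to Ncf4 and 5.48 from Ncf4 to Cybb. Order and steps depend on the gene lengths taken, here those deposited with the counts. GENCODE gives 2305 exonic bases for Cyba and 3663 for Ncf1, and levels were not computed with these. The gene for the electron path was thus measured at a far lower level than that of its partner Cyba.

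Of 14 other genes of the oxidase family, 8 passed the filter on low counts. Rac1, the RAC of most tissues, was at 147 CPM per kb in WT, close to Rac2. Cybc1, a chaperone of the CYBB and CYBA pair, was at 36.1 and Rap1a at 20.4. Hvcn1, a proton channel that balances the charge moved by the oxidase, was at 1.92 and Rac3 at 2.05. The subunits of the non-phagocytic oxidases were low, with Noxo1 at 1.88, Noxa1 at 0.284 and Nox4 at 0.280 CPM per kb. Nox1, Nox3, Duox1, Duox2, Duoxa1 and Duoxa2 did not pass the filter, and Nox3, Duoxa1 and Duoxa2 had no count in any LSK library.

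**Figure D1:**
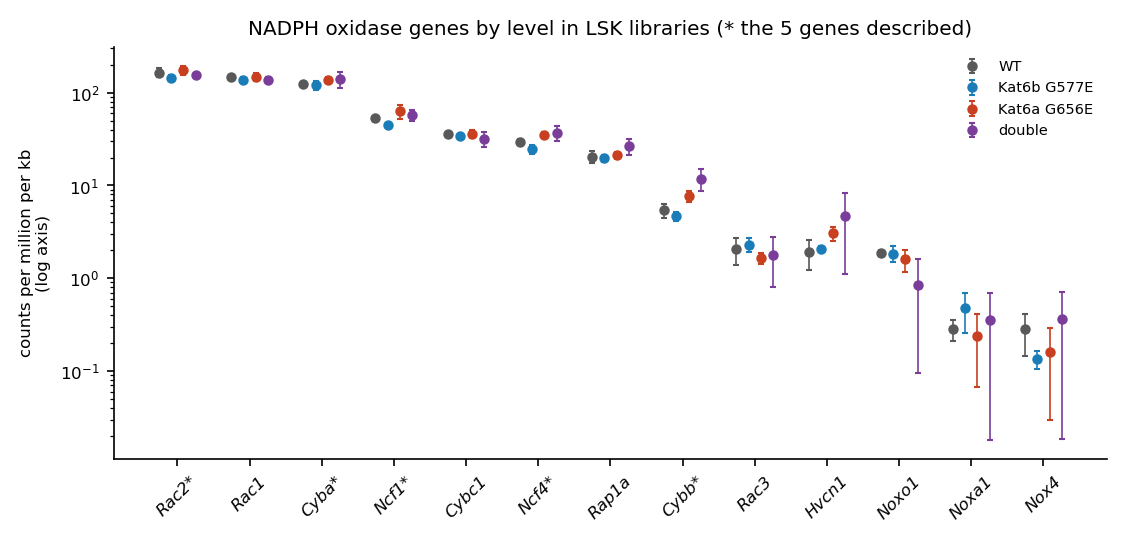
Level of 13 NADPH oxidase genes in LSK libraries, in CPM per kb of transcript on a log axis, ordered by the WT mean. Points are means and bars SD of 4 libraries per genotype, and asterisks mark the 5 genes described; Rac2 and Cyba lie above 100 in all 4 genotypes and Cybb lies between 4.68 and 11.9.

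By mean CPM, each of the 5 genes was highest in Kat6a E/E or double E/E and lowest in Kat6b E/E libraries, with the widest separation in Cybb and the narrowest in Cyba and Rac2. The differences that follow are log2 differences of a limma model with 4 surrogate variables, which stand for variation between libraries that the labels do not name, and with litter as a random block. In sorted cells measured in bulk, fewer cells of a type and less RNA per cell cannot be told apart. The 3 comparisons with WT share the same 4 WT libraries.

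The membrane pair is taken first. Cybb, the electron-carrying subunit, was at 21.0, 25.75, 24.04 and 31.65 CPM in WT replicates 1 to 4 and at 20.9, 21.8, 20.5 and 25.75 CPM in Kat6b E/E replicates 1 to 4. It was at 43.35, 33.2, 35.5 and 32.55 CPM in Kat6a E/E and at 35.3, 69.7, 65.4 and 55.1 CPM in double E/E libraries. Every library with the Kat6a mutation thus exceeded every WT and Kat6b E/E library, and the 3 highest were the double E/E littermates with few genes detected. The mean was 36.1 ± 4.97 CPM in Kat6a E/E and 25.6 ± 4.48 in WT, and the log2 difference was 0.54 (SE 0.10, 95% interval 0.32 to 0.76). Kat6a E/E exceeded Kat6b E/E, at 22.2 ± 2.41 CPM, by a log2 difference of 0.87 (SE 0.13, 95% interval 0.59 to 1.15). Kat6b E/E was below WT by a log2 difference of -0.33 (95% interval -0.63 to -0.030), although libraries of the 2 genotypes overlapped. Cybb is X-linked and the libraries were not of 1 sex, since Xist was at 926 to 1623 CPM in 5 of the 16 (WT replicate 3, Kat6b E/E replicate 1, Kat6a E/E replicate 2 and double E/E replicates 2 and 4) and at 2.39 CPM or less in the others. With log2 Xist as a covariate, the log2 difference between Kat6a E/E and WT was 0.51.

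In double E/E libraries Cybb depended most on the model. Their mean of 56.4 ± 15.3 CPM was 2.20 times that of WT, a log2 difference of 1.09 between plain means, but the model gave 0.51 (SE 0.16, 95% interval 0.17 to 0.86). By unweighted least squares with the same design, double E/E replicate 1 carried 66.2% of the double E/E estimate and replicate 3 carried -0.5%. These shares leave out the weights and litter block of the model. That design fitted the double E/E libraries almost exactly, so the SE rests mostly on the spread of other genotypes. The log2 difference from WT was 0.94 with no surrogate variables and 1.13 without double E/E replicate 1, and it was 0.51 without the 4 libraries with few genes detected, where double E/E is replicate 1 alone. The sign was the same in 31 of 31 alternatives.

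Cyba, the stabilizing partner, differed little. It was at 103, 91.6, 89.1 and 91.0 CPM in WT, at 82.5, 87.2, 104 and 89.0 in Kat6b E/E, at 109, 92.4, 109.9 and 103 in Kat6a E/E and at 93.9, 138, 95.8 and 99.8 in double E/E libraries. All genotypes overlapped, and the highest value came from double E/E replicate 2. The log2 difference between Kat6a E/E and WT was 0.20 (SE 0.074, 95% interval 0.039 to 0.35), and the one between Kat6b E/E and WT was -0.057 (95% interval -0.25 to 0.13). That between double E/E and WT was 0.057 (95% interval -0.18 to 0.30).

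Among the cytosolic subunits, Ncf1 encodes the organizer that brings the complex to the membrane. It was at 171, 157, 156 and 144.5 CPM in WT replicates 1 to 4 and at 129, 124, 138 and 139.5 CPM in Kat6b E/E, so that all Kat6b E/E libraries lay below all WT libraries. It was at 209, 140.3, 187 and 209 CPM in Kat6a E/E and at 197, 149.9, 177 and 153 CPM in double E/E. Kat6a E/E replicate 2, one of the 4 libraries with few genes detected, was the only Kat6a E/E library below WT. The log2 difference between Kat6a E/E and WT was 0.33 (SE 0.059, 95% interval 0.20 to 0.45), and that between Kat6a E/E and Kat6b E/E was 0.48 (SE 0.069, 95% interval 0.33 to 0.63). The model difference between double E/E and WT was also 0.33 (SE 0.089), whereas the plain means of 169 ± 22.1 and 157 ± 11.03 CPM differed by 0.098 on the log2 scale, and the edgeR quasi-likelihood fit without surrogate variables gave 0.10.

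Ncf4, which binds membrane phosphoinositides and keeps the assembled enzyme active, was at 51.1, 43.6, 47.0 and 51.3 CPM in WT and at 39.4, 36.8, 47.1 and 38.0 CPM in Kat6b E/E. It was at 62.7, 56.8, 55.6 and 56.05 CPM in Kat6a E/E, above every WT and Kat6b E/E library, and at 54.1, 73.4, 65.45 and 48.15 CPM in double E/E. The log2 difference from WT was 0.28 in Kat6a E/E (SE 0.084, 95% interval 0.099 to 0.46) and -0.29 in Kat6b E/E (SE 0.11, 95% interval -0.52 to -0.064). Kat6a E/E and Kat6b E/E were 0.57 apart (SE 0.10, 95% interval 0.35 to 0.79). Double E/E exceeded Kat6b E/E by 0.45 (SE 0.12), with no overlap between the libraries.

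Rac2, the GTPase, was the most abundant of the 5. It was at 556, 507, 513 and 425 CPM in WT, at 444, 399.5, 422 and 472 in Kat6b E/E, at 555, 436, 554 and 574 in Kat6a E/E and at 511, 469.7, 455 and 438 in double E/E libraries. All genotypes overlapped with WT. The log2 difference from WT was 0.15 in Kat6a E/E (SE 0.058, 95% interval 0.029 to 0.27) and -0.099 in Kat6b E/E (95% interval -0.25 to 0.048). For double E/E and WT it was 0.081 (95% interval -0.10 to 0.27) in the model and -0.099 by DESeq2 without surrogate variables.

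**Figure D2:**
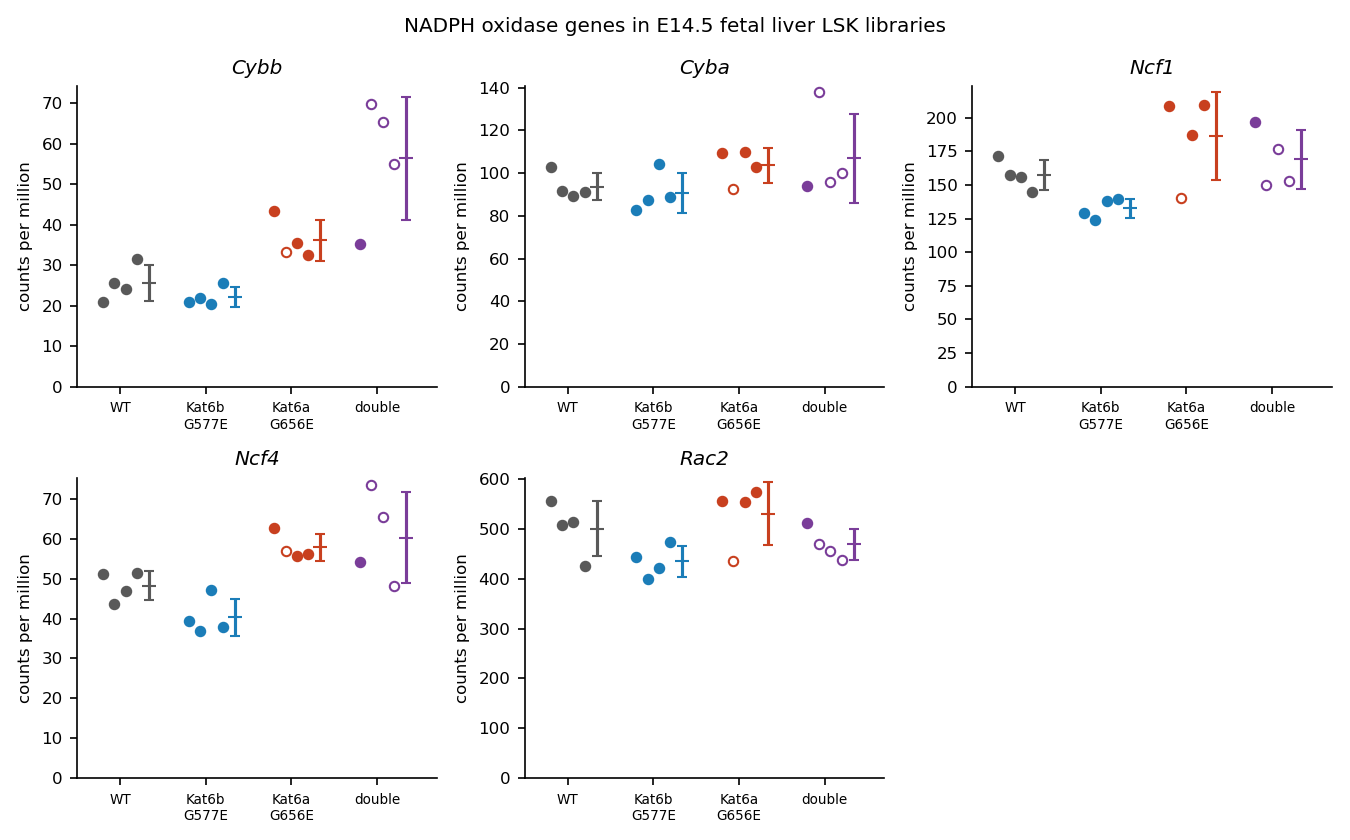
CPM (counts scaled to a common library total) of the 5 genes in each of the 16 LSK libraries, with the mean and SD of each genotype beside the points. Open circles are the 4 libraries with 12600 to 13683 genes detected; Cybb lies between 32.55 and 69.7 in all 8 libraries with the Kat6a mutation and between 20.5 and 31.65 in the other 8.

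Across the 5 genes, every log2 difference between Kat6a E/E and WT was above 0 (median 0.28, against -0.012 over the 13071 genes tested), and all 5 signs were the same in 31 of 31 alternative models. The same held for Kat6a E/E against Kat6b E/E (median 0.48, against -0.023 over all genes) and, in the main model, for double E/E against Kat6b E/E (median 0.45, against -0.043). The 5 differences between Kat6b E/E and WT were below 0 (median -0.15, against 0.011), and those between double E/E and Kat6a E/E had 95% intervals that all held 0. For Cybb, double E/E minus Kat6a E/E was -0.027 in the model and 0.60 between plain means. Its sign held in 16 of 31 alternatives, and 3 double E/E libraries lay above all Kat6a E/E libraries for Cybb. Libraries of Kat6a E/E lay above all WT libraries for 2 of the 5 genes, Cybb and Ncf4, where 1.89% of all genes did. They lay above all Kat6b E/E libraries for 3, Cybb, Ncf1 and Ncf4, where 5.26% of all genes did, and double E/E libraries did so for the same 3, where 2.23% did. Double E/E lay above WT for 1 gene, Cybb (1.53% of all genes), and Kat6b E/E below WT for 1, Ncf1 (1.73%). Since these libraries chose the genes, the counts describe the choice. For genes other than the 5 in LSK cells, and for all genes at E9.5, a call is a false discovery rate (FDR) below 0.05. The FDR is the Benjamini-Hochberg adjusted p of limma over all genes tested. The lists of other genes used below were also chosen with earlier results of these data known. Their numbers of calls in LSK cells are thus not independent of those results. Between Kat6b E/E and WT, double E/E and WT, and double E/E and Kat6a E/E, 0.0% of all genes were called by limma, with 364, 896 and 197 genes at an unadjusted p below 0.05, and without surrogate variables DESeq2 called 0, 262 and 62 and edgeR 0, 39 and 0.

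**Figure D3:**
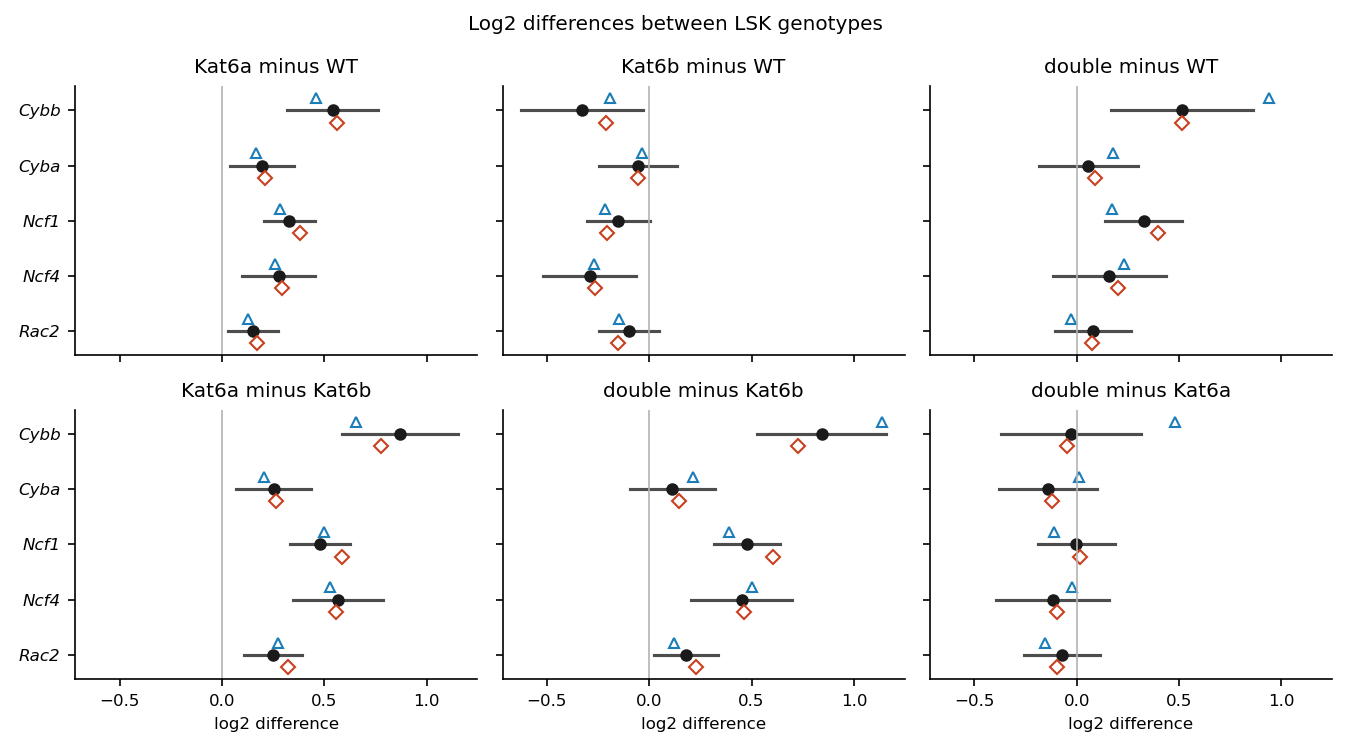
Log2 differences of the 5 genes in 6 comparisons of LSK genotypes. Circles and bars give the model estimate with its 95% interval, triangles the estimate with 0 surrogate variables, and diamonds the estimate without the 4 libraries with few genes detected and with 0 surrogate variables; in both comparisons of Kat6a E/E with WT and with Kat6b E/E all symbols lie above 0, and for Cybb in double E/E against WT the triangle is at 0.94 and the circle at 0.51.

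Some litters held more than 1 genotype, and their values follow as a description, since these libraries were among those the genes were chosen on. One litter gave WT replicates 1 to 3 and Kat6a E/E replicate 1, and the latter exceeded all 3 WT littermates for Cybb (1.84 times their mean), Ncf4 (1.33 times), Ncf1 (1.29 times) and Cyba (1.16 times), while Rac2, at 1.06 times, did not. A second litter gave Kat6b E/E replicate 1 and double E/E replicate 1, and the ratio of double E/E to Kat6b E/E was 1.69 for Cybb, 1.53 for Ncf1, 1.37 for Ncf4, 1.15 for Rac2 and 1.14 for Cyba. The other Kat6a E/E libraries were 1 litter each, with no WT littermate among the libraries. Without the 4 libraries with few genes detected, the log2 difference between Kat6a E/E and WT was 0.55 for Cybb, 0.32 for Ncf1, 0.26 for Ncf4, 0.21 for Cyba and 0.13 for Rac2.

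Markers of other blood cells also differed between genotypes. The summed CPM of 7 granulocyte-monocyte progenitor markers was 4495 to 7000 in WT and 5247 to 6211 in Kat6a E/E, and it was 4002 to 5879 in Kat6b E/E and 3416 to 4889 in double E/E. Mpo alone was at 2483 to 5120 CPM. The 10 neutrophil markers summed to 200.4 to 529 CPM in WT, 216 to 430 in Kat6b E/E, 282 to 647 in Kat6a E/E and 394 to 2146 in double E/E, and the 12 macrophage markers to 238 to 306, 185 to 342, 211 to 324 and 245 to 347 CPM in the same order. Groups that carried the Kat6a mutation were apart from WT and Kat6b E/E in 2 other lists. The 6 mast cell and basophil markers summed to 143.5 to 157 CPM in WT, 126 to 153 in Kat6b E/E, 88.1 to 105 in Kat6a E/E and 102 to 124 in double E/E. Gata2 made up most of this sum, at 52.6 to 114 CPM alone, against 15.05 to 43.1 for Cpa3 and 0 to 0.115 for Fcer1a. The 8 lymphoid markers summed to 98.3 to 165, 107 to 122, 39.2 to 68.8 and 14.9 to 68.4 CPM in the same order, with Cd3e at 0 in all libraries. The 9 erythroid markers summed to 1042 to 4167 CPM in WT, 2014 to 5707 in Kat6b E/E, 535 to 6979 in Kat6a E/E and 1338 to 15760 in double E/E, and the 3 double E/E littermates with few genes detected had the 3 highest sums of the 16 libraries, at 9047, 9504 and 15760 CPM. In these 3 libraries, 10 markers of LSK cells summed to 1009 to 1215 CPM, within a range of 1009 to 2137 over all 16. These 3 were also the libraries with the highest Cybb. What these cells contributed to the oxidase differences was not tested.

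The other family genes were not among the genes selected and were tested in LSK cells. Of the 8 tested, 0 were called by limma between Kat6a E/E and WT, Kat6a E/E and Kat6b E/E or double E/E and Kat6b E/E. In each, 1 of the 8 had an unadjusted limma p below 0.05, beside 12.5%, 17.5% and 20.8% of all genes in that order. DESeq2 and edgeR without surrogate variables called 0. The median log2 difference of the 8 between Kat6a E/E and Kat6b E/E was -0.080, against -0.023 over all genes. Hvcn1 was at 8.99 ± 1.56 CPM in Kat6a E/E and 5.68 ± 2.00 in WT, a log2 difference of 0.48 (SE 0.16, limma FDR 0.193), whereas Rac1 had one of 0.052 (SE 0.056, limma FDR 0.785) and Cybc1 one of 0.034 (SE 0.060, limma FDR 0.889). The number called between Kat6a E/E and Kat6b E/E was 1 (Hvcn1) without Kat6a E/E replicate 2, WT replicate 4 or any 1 double E/E library, and 1 without the 4 libraries with few genes detected. Between Kat6a E/E and WT it was 1 (Hvcn1) without double E/E replicate 1 or 2 or WT replicate 4, and between double E/E and Kat6b E/E it was 2 without double E/E replicate 1 and 1 without WT replicate 4.

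All 20 genes tied to oxidase activation or its restraint (the activation list) were tested. Of these, 6 rose in Kat6a E/E over Kat6b E/E (Itgam, Fcer1g, Itgb2, Pak1, Pik3r5 and C5ar1) and 0 fell, beside 1.12% of all genes called higher. The other 14 were not called, among them the protein kinase C genes Prkca and Prkcb with log2 differences of -0.22 and -0.37. The median log2 difference of all 20 was 0.28, against -0.023 over all genes. Itgam and Itgb2 encode the 2 chains of the complement receptor integrin of myeloid cells. Itgam rose from 40.9 ± 6.35 to 59.2 ± 4.96 CPM (log2 difference 0.56, SE 0.10, limma FDR 0.0154) and Itgb2 from 61.1 ± 7.04 to 80.9 ± 8.62 CPM (0.38, SE 0.082, limma FDR 0.0312). Fcer1g, the signaling chain of Fc receptors, rose from 33.6 ± 4.00 to 43.1 ± 1.48 CPM (0.45, SE 0.087, limma FDR 0.0206). Pak1, a kinase that RAC activates, rose from 83.95 ± 8.999 to 116 ± 15.5 CPM (0.37, SE 0.083, limma FDR 0.0350). Part of these gaps lay on the Kat6b E/E side. In WT, Itgam was at 48.7 ± 1.97, Itgb2 at 67.2 ± 4.80, Fcer1g at 36.1 ± 2.31 and Pak1 at 102 ± 15.0 CPM. Against WT, 1 of the 20 rose in Kat6a E/E, Itgb2 (0.34, SE 0.068, limma FDR 0.0267), beside 0.734% of all genes called higher, and 3 rose in double E/E over Kat6b E/E, Itgam, Itgb2 and Pik3r5, beside 0.551%. The Itgb2 call against WT was lost without surrogate variables and without Kat6a E/E replicate 1 or 3 or WT replicate 2 or 4. The 3 calls in double E/E became 0 without surrogate variables and without Kat6b E/E replicate 1 or 2, 5 without WT replicate 4, 8 without double E/E replicate 1 and 1 or 2 without any of the other 12 libraries. The number called between Kat6a E/E and Kat6b E/E was 0 without surrogate variables and 0 without Kat6a E/E replicate 1, Kat6a E/E replicate 4 or Kat6b E/E replicate 2, was 1 to 3 without any of the other 5 libraries of the 2 genotypes, and was 12 without WT replicate 4. Without the 4 libraries with few genes detected it was 7.

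Of 12 transcription factors known from oxidase or myeloid gene control, all tested, 4 rose in Kat6a E/E over Kat6b E/E and 0 fell, again beside 1.12% of all genes called higher. Cebpb, a factor of emergency granulocyte production, was at 55.9 ± 3.95 CPM in Kat6b E/E, against 84.1 ± 3.24 in Kat6a E/E (log2 difference 0.62, SE 0.095, limma FDR 0.0102). Spi1, which encodes PU.1, was at 145 ± 6.77 and 195 ± 28.65 CPM (0.40, SE 0.070, limma FDR 0.0152), Cebpa at 84.8 ± 6.16 and 121 ± 16.8 CPM (0.45, SE 0.081, limma FDR 0.0152) and Irf8, a factor of the monocyte lineage, at 84.1 ± 8.73 and 129 ± 36.0 CPM (0.53, SE 0.11, limma FDR 0.0317). Part of this gap lay on the Kat6b E/E side, since Spi1 was at 184 ± 18.4, Cebpa at 112 ± 13.0 and Cebpb at 69.8 ± 6.29 CPM in WT. Against WT, Irf8 rose in Kat6a E/E (0.45, SE 0.095, limma FDR 0.0299), whereas the model gave 0.16 for Spi1 (limma FDR 0.2405), 0.20 for Cebpa (limma FDR 0.195) and 0.32 for Cebpb (limma FDR 0.0600). The median of the 12 was 0.0098 against WT and 0.19 against Kat6b E/E. Between double E/E and WT, the log2 difference of Spi1 was -0.16 (limma FDR 0.773). The 4 calls between Kat6a E/E and Kat6b E/E became 0 without surrogate variables and 0 without Kat6a E/E replicate 1 or 4, 1 without Kat6b E/E replicate 2 and 2 without Kat6b E/E replicate 4, while omission of any 1 double E/E library gave 6. Without the 4 libraries with few genes detected, 5 were called, and 4 were called without these libraries and without surrogate variables. The Irf8 call against WT was lost without surrogate variables and without Kat6a E/E replicate 1 or 4, Kat6b E/E replicate 1 or WT replicate 2 or 3, and the number called against WT was 2 or 3 without any 1 double E/E library.

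None of the tested genes that remove reactive oxygen was called higher in Kat6a E/E. Of 19 tested of 20 antioxidant genes, 0 rose and 2 fell in Kat6a E/E against Kat6b E/E, beside 0.941% of all genes called lower, with a median log2 difference of -0.17. Prdx2, a peroxiredoxin abundant in red cells, was at 409 ± 157 CPM in Kat6a E/E against 561 ± 122 in Kat6b E/E (log2 difference -0.38, SE 0.089, limma FDR 0.0412), and Gclm, a subunit of the enzyme of glutathione synthesis, at 98.2 ± 58.1 against 144 ± 27.5 CPM (-0.55, SE 0.13, limma FDR 0.0499). Erythroid markers summed to 535 to 6979 CPM in Kat6a E/E against 2014 to 5707 in Kat6b E/E, and their part in these values was not tested. Part of the gap in both genes lay on the Kat6b E/E side, since Prdx2 was at 399 ± 78.5 and Gclm at 86.6 ± 34.7 CPM in WT. The log2 differences of Prdx2 and Gclm from WT were -0.18 and -0.20 in Kat6a E/E and 0.20 and 0.35 in Kat6b E/E. Against WT 0 of the 19 were called in Kat6a E/E. An unadjusted limma p below 0.05 was seen for 2, both lower, beside 12.5% of all genes in either direction. The 2 calls became 0 without surrogate variables and 0 or 1 without any 1 of 15 of the 16 libraries, while omission of WT replicate 4 gave 5.

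The interval between Ncf4 and Rac2 on chromosome 15 holds 10 other protein-coding genes, of which 7 were tested (Cimip4, Tmprss6 and Sstr3 were not). In Kat6a E/E, 3 of the 7 rose over WT and 0 fell, beside 0.734% of all genes called higher, and the same 3 rose over Kat6b E/E, beside 1.12%. Csf2rb, the receptor chain shared by GM-CSF, IL-3 and IL-5, rose from 93.6 ± 4.41 to 121 ± 17.4 CPM (log2 difference 0.45, SE 0.063, limma FDR 0.00400), and Csf2rb2, its IL-3-specific paralog, from 12.8 ± 1.13 to 18.8 ± 1.41 CPM (0.62, SE 0.11, limma FDR 0.0150). C1qtnf6, a secreted protein of the C1q and TNF-related family, rose from 11.98 ± 3.52 to 18.7 ± 5.19 CPM (0.88, SE 0.16, limma FDR 0.0177). How reads were divided between the similar Csf2rb and Csf2rb2 was not checked. The 4 genes not called were Kctd17 (0.62, SE 0.18, limma FDR 0.131), Il2rb (0.23, SE 0.37), Tst (0.10, SE 0.10) and Mpst (-0.057, SE 0.076). Csf2rb and Csf2rb2 also rose in double E/E over Kat6b E/E, with log2 differences of 0.57 and 0.88 (limma FDR 0.0154 and 0.0206), beside 0.551% of all genes called higher. Against WT the 3 calls became 0 without surrogate variables and without Kat6a E/E replicate 1, and 1 without WT replicate 4, and they were 3 without the 4 libraries with few genes detected, with and without surrogate variables. Against Kat6b E/E they became 0 without surrogate variables and 1 without Kat6a E/E replicate 1 or 4 or Kat6b E/E replicate 2. The 2 calls in double E/E became 0 without surrogate variables and without Kat6b E/E replicate 1, 1 without Kat6b E/E replicate 2 and 4 without double E/E replicate 1.

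**Figure D4:**
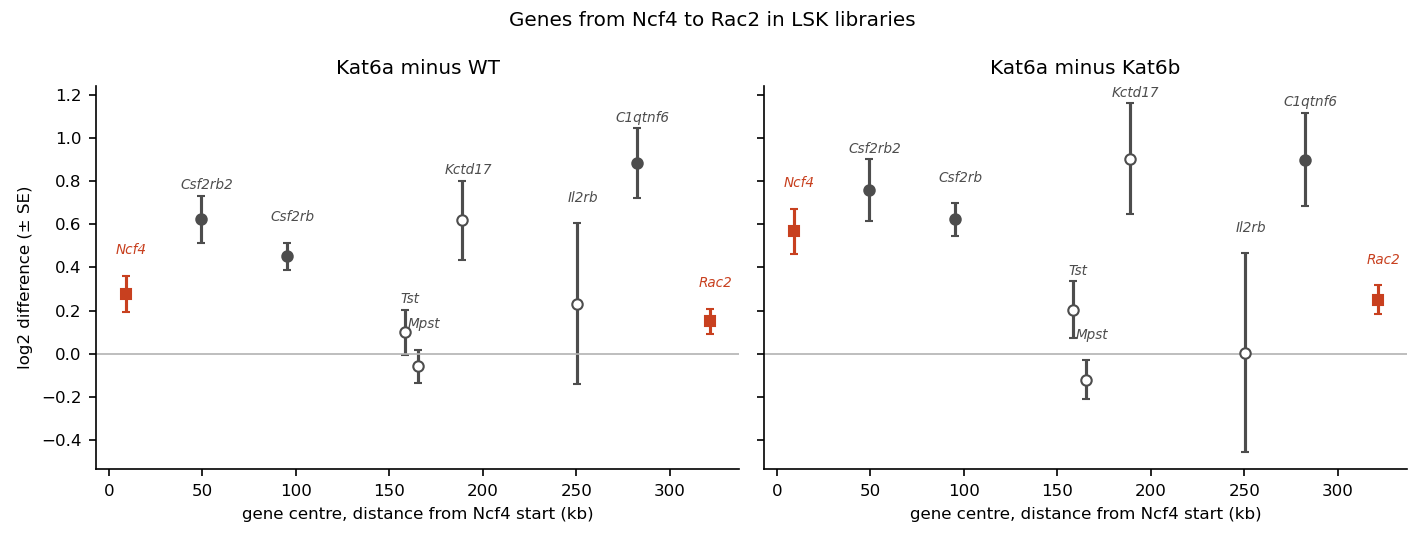
Log2 difference (± SE) of Ncf4, Rac2 and the 7 tested genes between them, by distance of the gene centre from the start of Ncf4 in kb, for Kat6a E/E minus WT and Kat6a E/E minus Kat6b E/E. Squares are Ncf4 and Rac2, filled circles genes with FDR below 0.05 and open circles the others; Csf2rb2, Csf2rb and C1qtnf6 are filled in both panels, at 0.62, 0.45 and 0.88 against WT.

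Over the 16 LSK libraries, Csf2rb also had the pattern most like that of the 5 genes. Its log2 CPM had a Pearson r of 0.94 with the mean standardized log2 CPM of the 5, 0.78 after genotype means were removed and 0.95 over the 12 libraries without the 4 with few genes detected. Next were Paxx, a factor of DNA end joining (r 0.91), Hoxb4, a homeobox gene of stem cells (0.91), S100a4 (0.90) and Vsir, an immune checkpoint gene of the myeloid lineage (0.89). All points share library and depth, and these r are a description over genes ranked by r. Hoxb4 was at 4.02 ± 0.9746 CPM in WT, 2.99 ± 0.764 in Kat6b E/E, 5.99 ± 1.15 in Kat6a E/E and 6.53 ± 1.95 in double E/E.

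Each of the 5 also had genes nearest to it alone, which are named after their values were seen. Cybb was nearest to Ifitm6 (r 0.97), to Lyz2, the lysozyme of macrophages and neutrophils (0.95), and to Lcn2, a granule protein of neutrophils (0.94). Rac2 was nearest to Hcls1 (0.97), Lasp1 (0.97) and the actin-bundling gene Lcp1 (0.96), Ncf1 to Scpep1 (0.92), Ptgs1 (0.92) and Csf1r, the receptor of macrophage colony-stimulating factor (0.91), Ncf4 to Rogdi (0.92) and Cyba to Fis1 (0.91). Among the 5 themselves, r was highest between Ncf1 and Rac2 (0.84, and 0.82 within genotypes) and between Cybb and Ncf4 (0.77, and 0.41 within genotypes). Cybb and Rac2 had an r of 0.05 over 16 libraries, -0.30 within genotypes and 0.53 over the 12 libraries. The relation of Cybb to Ncf1 moved in the same way, from 0.38 over 16 libraries to 0.78 over 12.

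In whole E9.5 embryos the same genes were near the lower limit of the measurement, and 4 of the 5 passed the filter. Cyba was at 13.9 to 23.8 CPM, while Ncf1 (0.161 to 1.99), Ncf4 (0.375 to 1.83) and Rac2 (0.322 to 3.21) were low, and Cybb, with 0 to 0.729 CPM, did not pass. Of 4 genes tested, 0 were called by limma in each of the 5 comparisons with WT, beside 2.64% of all genes in Kat6a -/-, 0.508% in Kat6b -/-, 0.275% in Kat6a E/E, 0.0% in Kat6b E/E and 2.91% in double E/E embryos. DESeq2 and edgeR also called 0. At an unadjusted p below 0.05 the numbers were 2 in Kat6a -/- (16.9% of all genes), 1 in Kat6b -/- (12.1%), 1 in Kat6a E/E (10.02%), 0 in Kat6b E/E (4.41%) and 1 in double E/E (18.2%).

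Rac2 had larger log2 differences from WT than Cyba, Ncf1 and Ncf4 in 4 of the 5 genotypes, whereas in Kat6b E/E the one of Ncf4 was 0.43 (SE 0.38). Rac2 was at 1.04, 1.03, 0.846 and 0.643 CPM in WT embryos and at 1.68, 1.73, 3.21 and 1.45 CPM in Kat6a -/- embryos, with no overlap, as for 5.44% of all genes. The log2 difference was 0.98 (SE 0.30, limma FDR 0.0782). In Kat6a E/E embryos Rac2 was at 2.26, 2.67, 1.30 and 1.35 CPM, again above all WT embryos, as for 2.32% of all genes, and the log2 difference was 0.81 (SE 0.30, limma FDR 0.331). In double E/E embryos it was 0.82 (SE 0.31, limma FDR 0.139), in Kat6b -/- embryos 0.71 (SE 0.32, limma FDR 0.360) and in Kat6b E/E embryos 0.095 (SE 0.33, limma FDR 0.999). None of these passed the threshold, and the difference in Kat6a -/- did so in 4 of 36 alternatives. The 12 macrophage markers summed to 6.40 to 11.1 CPM in WT, 10.3 to 18.5 in Kat6a -/- and 9.38 to 20.4 in Kat6a E/E embryos, and to 5.61 to 9.09 in Kat6b -/-, 4.10 to 10.8 in Kat6b E/E and 8.73 to 11.6 in double E/E embryos, with Marco at 0 in all 24, and their part in the Rac2 values was not tested.

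Cyba lay above WT in every Kat6a -/- embryo, at 23.8, 19.99, 18.45 and 20.4 CPM against 16.9, 16.55, 15.8 and 18.2 CPM, with a log2 difference of 0.20 (SE 0.090, limma FDR 0.249). In the other 4 genotypes its difference was between -0.074 and 0.016. Ncf1 and Ncf4 in Kat6a -/- had log2 differences of 0.56 (SE 0.36, limma FDR 0.464) and 0.61 (SE 0.37, limma FDR 0.414), so that changes of this size were within the error at these counts. Cybb had 0 or 1 count in each WT embryo, 1 to 9 in Kat6a -/-, 1 to 12 in Kat6b -/-, 3 to 10 in Kat6a E/E, 1 to 4 in Kat6b E/E and 3 to 5 in double E/E embryos. Its CPM was 0 to 0.0865 in WT embryos. It was 0.0882 to 0.704 in Kat6a -/-, 0.193 to 0.431 in Kat6a E/E and 0.206 to 0.328 in double E/E embryos, without overlap with WT. The same held for 5.44%, 2.32% and 3.37% of the tested genes, which do not include Cybb. In counts, Kat6a -/- and WT embryos did overlap. Replicate 1 of each held 1 count of Cybb, and their CPM differed by library total alone. Kat6b -/- and Kat6b E/E embryos overlapped with WT. With no filter on low counts it was called in double E/E embryos (log2 difference 2.13, limma FDR 0.0360), and its limma FDR was 0.0553 in Kat6b -/- and 0.107 to 0.999 in the other 3 genotypes. Cybb is X-linked, and Xist was at 526.9 to 755 CPM in 3 of the 24 embryos (Kat6a -/- replicate 2 and Kat6b -/- replicates 2 and 3) and at 0.514 CPM or less in the others, which included all WT and double E/E embryos. The paper describes all sequenced E9.5 embryos as male, which the Xist values of these 3 do not match.

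Of the other family genes, 7 were tested at E9.5 and 1 was called. Cybc1, the chaperone of the membrane pair, rose in Kat6a -/- embryos from 28.3 ± 0.643 to 33.7 ± 2.93 CPM (log2 difference 0.25, SE 0.067, limma FDR 0.0418), beside 1.26% of all genes called higher, and the call was lost without any 1 of 12 of the 24 embryos, with 0 or 2 surrogate variables (limma FDR 0.106 and 0.0664), by edgeR (FDR 0.0525) and with only the 2 genotypes compared (limma FDR 0.0745). Of 18 genes of the activation list tested at E9.5, which holds activators and restraining genes, Arhgdib rose in Kat6a -/- embryos, beside the same 1.26%. Arhgdia fell in Kat6b -/- embryos, where 0.338% of all genes were called lower, and in double E/E embryos, where 1.57% were. Of 20 antioxidant genes Txnrd1 fell in double E/E embryos, beside the same 1.57%, and of 10 transcription factors 0 were called. These names were chosen after their values were seen.

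**Figure D5:**
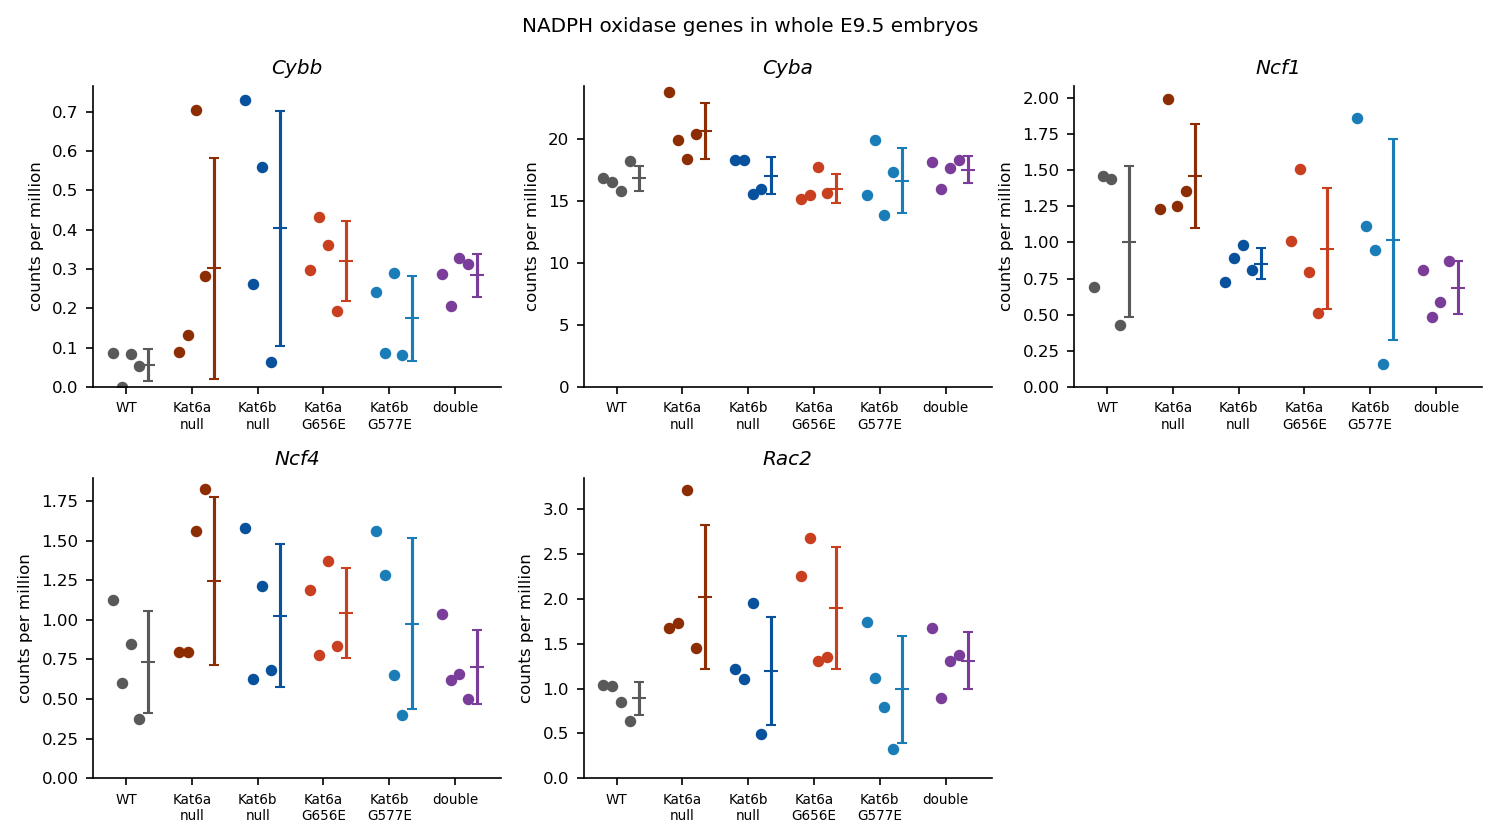
CPM (counts scaled to a common library total) of the 5 genes in each of the 24 E9.5 embryos, with the mean and SD of each genotype beside the points. Rac2 lies between 0.643 and 1.04 in WT, between 1.45 and 3.21 in Kat6a null and between 1.30 and 2.67 in Kat6a G656E embryos, and Cybb stays below 0.73 in all of them.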

How the data were processed

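RNA-seq was analysed in 16 sorted LSK libraries and 24 whole E9.5 embryos, with 4 libraries per genotype, some of them littermates. The labels do not say whether an LSK library is 1 embryo. The p-values measure the spread between these libraries that the model leaves. Leverage, the share of a library's own value in its fitted value, was taken from an unweighted fit of the LSK design. It was 0.918 to 0.998 in double E/E libraries, 0.977 in Kat6a E/E replicate 2 and 0.251 to 0.36 in the others. Errors and FDR of double E/E thus rest mostly on the spread of other genotypes. Kat6a E/E replicate 2 carried 2.5% of the Kat6a E/E estimate in that fit. The authors aligned paired-end reads of unstranded libraries to mm39 with Rsubread and deposited, per sample, counts of read pairs per RefSeq gene from featureCounts, with gene lengths and no normalization. From the deposited counts, CPM was computed on TMM-scaled library totals, and CPM per kb with the deposited lengths. Protein-coding genes not on chromosome Y that passed filterByExpr were tested (13071 in LSK, 14183 at E9.5) in R 4.3.3 with edgeR 4.0.16 and limma 3.58.1 as in the study: TMM scaling, 4 surrogate variables, voomLmFit with litter as a random block (correlation 0.331 and 0.107), robust moderation, and FDR below 0.05. Of 26411 genes, 52 did not match the annotation and were not tested. Depth is given as total counts, and intervals are 95% intervals of the model. The script steps were tested on simulated data. The genes and lists were chosen with earlier results of these data known. All family genes but 1, which is not reported here, all genes between Ncf4 and Rac2, at most 4 genes of each other list (those called, by smallest p) and the 5 genes most correlated with the mean of the described genes are named by rule. Alternatives were 0, 2 or 6 surrogate variables, DESeq2 (1.42.0), edgeR, other scaling, filters and blocks, and omission of each library, and, chosen after seeing the data, omission of the 4 libraries with few genes detected.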

Additional observations from a re-analysis of the deposited data

Results flagged for a closer look

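Of 70 groups of 4 libraries examined for 1 value far from the other 3 by Dixon's criterion, 7 held such a value, and chance alone gives about 1 in 20. In LSK cells, Cyba was at 137.9 CPM in double E/E replicate 2 and at 93.87 to 99.83 CPM in the other 3. Ncf4 was at 62.74 CPM in Kat6a E/E replicate 1 and at 55.63 to 56.79 CPM in the others. Rac2 was at 436.3 CPM in Kat6a E/E replicate 2 and at 554.4 to 573.9 CPM in the others, and Kat6b was at 22.33 CPM in the same library and at 37.99 to 40.64 CPM in the others. This replicate is one of the 4 libraries with few genes detected, as is double E/E replicate 2. In E9.5 embryos, Ncf1 was at 1.992 CPM in Kat6a -/- replicate 2 and at 1.235 to 1.358 CPM in the others, and Rac2 was at 3.206 CPM in Kat6a -/- replicate 3 and at 1.452 to 1.727 CPM in the others. Kat6b was at 55.97 CPM in double E/E replicate 2 and at 40.68 to 42.0 CPM in the others.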

How the results depend on the processing

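Of the log2 differences of the 5 genes in LSK cells, those between Kat6a E/E and WT and between Kat6a E/E and Kat6b E/E kept their sign in 31 of 31 alternatives and moved by less than the spread between replicates. Larger moves were seen in comparisons of double E/E alone. For Cybb, double E/E minus WT was 0.94 with 0 surrogate variables, 1.13 by DESeq2, 1.13 by edgeR and 0.88 with only those genotypes, and 0.50 to 1.13 over the omissions. Double E/E minus Kat6b E/E was 1.14, 1.35, 1.34 and 1.23 in the same order and 0.80 to 1.46 over the omissions, and double E/E minus Kat6a E/E was 0.48, 0.64, 0.64 and 0.59, with 0.36 for 2 surrogate variables and -0.063 to 0.56 over the omissions. By DESeq2 and edgeR, double E/E minus WT was 0.0996 and 0.105 for Ncf1 (0.14 with only those genotypes) and -0.099 and -0.094 for Rac2, and double E/E minus Kat6a E/E was 0.041 and 0.043 for Cyba and 0.056 and 0.059 for Ncf4. The cause was not tested.

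The numbers of list genes called depended on the surrogate variables. The comparisons stand in the order Kat6a E/E minus WT, then minus Kat6b E/E, then double E/E minus Kat6b E/E. With 0 surrogate variables, the calls were 0, 0 and 0 in the family, activation, antioxidant and factor lists and between Ncf4 and Rac2. With 2, the antioxidant calls were 5 in the second comparison, and the double E/E calls were 1 in the antioxidant and 2 in the factor list. With 6, the family gave 1 and the antioxidants 1 in the second comparison, and the factors 2, 6 and 1. DESeq2 gave 0 and 0 in the activation list, 0 in the antioxidant list, 0 against WT and 1 in double E/E in the factor list, and 0 against WT between Ncf4 and Rac2, and 1 antioxidant with its size factors alone. edgeR gave 0 in all of these except 1 activation gene and 1 gene between Ncf4 and Rac2 in double E/E, and with 4 surrogate variables 1 family gene in double E/E, 0, 11 and 5 activation genes, 5 and 5 antioxidants, 0 factors against WT with 2 in double E/E, and 1 gene between Ncf4 and Rac2 against WT. Without a filter on low counts or with all gene types, 1 activation gene was called in double E/E and 0 antioxidants between Kat6a E/E and Kat6b E/E. With the Xist covariate, 2 activation genes and 2 factors were called against WT and 3 antioxidants in double E/E. Without the litter block, 0 activation genes, 0 factors and 1 gene between Ncf4 and Rac2 were called against WT, and 4 and 5 antioxidants in the other comparisons. With only the genotypes compared, the calls were 0, except 2 genes between Ncf4 and Rac2 against WT and 1 factor against Kat6b E/E. Without the 4 libraries with few genes detected, the family gave 1 and 1, the activation list 2 against WT, the antioxidants 1, 4 and 6, and the factors 2 against WT and 2 in double E/E, and with 0 surrogate variables as well 1 and 0 activation genes, 0 antioxidants and 0 genes between Ncf4 and Rac2 in double E/E. Double E/E is then replicate 1 alone, which is assumed to vary like the other groups. Over omissions of 1 library, the calls were 0 to 1, 0 to 1 and 0 to 2 in the family, 0 to 3, 0 to 12 and 0 to 8 in the activation list, 0 to 5 and 0 to 4 antioxidants in the last 2 comparisons, 0 to 3, 0 to 6 and 0 to 4 factors, and 0 to 3, 1 to 4 and 0 to 4 between Ncf4 and Rac2. At E9.5 the described genes had 0 calls, 2 with 6 surrogate variables, 1 without a filter on low counts and 0 to 1 over the omissions.

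Replicate numbers did not pair the samples. The correlation of deviations between same-numbered LSK libraries had a median of 0.0259 (-0.522 to 0.463 over 24 pairs), and at E9.5 it had a median of 0.0643 (-0.26 to 0.342 over 60 pairs). With a replicate block, the list calls were 0 in all lists, 1 in each of the 3 comparisons between Ncf4 and Rac2, and 1 (Rac2 in Kat6a -/-) among the described genes at E9.5.

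Depth limits the E9.5 values, where Rac2 had 10 to 12 counts per WT embryo and Cybb 0 or 1. Litter and genotype cannot be told apart for 3 of 4 double E/E LSK libraries, which were littermates, and of the 16 omissions, that of the other one moved the double E/E values of Cybb most.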
